A study of Xenopus tropicalis with 4 samples.

Results

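The genes described are gap43, nefh, nefm, nefl, snap25 and mbp, which encode structural proteins of the axon, its ending and its myelin sheath. They were picked by symbol, all 6 were in the table of 15410 genes, and they hold 41 of its 66426 polyadenylation sites. WTTS-seq (whole transcriptome termini site sequencing) counts reads at the 3' ends of polyadenylated RNA. Each of the 4 libraries was made from the RNA of 1 whole adult frog, 2 females and 2 males of the clawed frog Xenopus tropicalis. The labels give no strain, treatment or exact age, and by its title the series compares the sexes for how they use alternative ends of transcripts. Read totals ran from 1531471 to 2779715 per library.

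Axons are filled with neurofilaments, which are polymers of a light (nefl), a medium (nefm) and a heavy (nefh) subunit and set the calibre of the axon. gap43 is a membrane protein of growing and regenerating axon tips, and snap25 is a SNARE protein that drives fusion of synaptic vesicles at the axon ending. mbp is the myelin basic protein, which holds the layers of the myelin sheath together and is made by oligodendrocytes in the brain and spinal cord and by Schwann cells in nerves. A whole-body homogenate mixes all of these cells with every other tissue, and the females carry eggs. In such RNA, fewer cells of a type and less RNA per cell cannot be told apart.

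The axon genes were far higher in the males, while mbp did not follow them. Of the 6 genes, 5 were higher in males and none in females by edgeR's quasi-likelihood test (Benjamini-Hochberg adjusted p under 0.05), against 17.1% of all 10188 tested genes called higher in males and 19.6% called higher in females. The 6 genes were chosen with earlier results of these data known, so this count is a description and not an independent test of the set. On the females alone, gap43, nefh, nefm and snap25 would not have had enough reads for the test. A gene that enters through the males is more likely to be called higher in males, so the count is partly set by the filter. With no filter on low counts the same 5 genes were called (edgeR). In the same 5 genes both males lay above both females, which held for 32.1% of all tested genes. The median log2 fold change, male over female, was 4.58 for the 6 genes and -0.35 for all genes.

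The females' libraries hold egg RNA that is nearly absent from the males', so the scale between the sexes matters for every fold change below. A list of 14 oocyte and egg genes summed to 4312 and 4328 CPM in the females and to 6.71 and 12.3 CPM in the males, with 9 of the genes, such as the egg coat gene zp2, at 0 reads in both males. CPM here is the read count scaled to the TMM-scaled library size. A list of 18 skeletal muscle genes summed to 11110 and 5989 CPM in the females, against 153800 and 104000 for the males. Muscle, liver, connective tissue, blood and gut genes had a median log2 fold of 3.56 over 61 tested genes, and an alternative scaling set this median to 0. The part of tissue make-up in the differences was not tested.

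**Figure D1:**
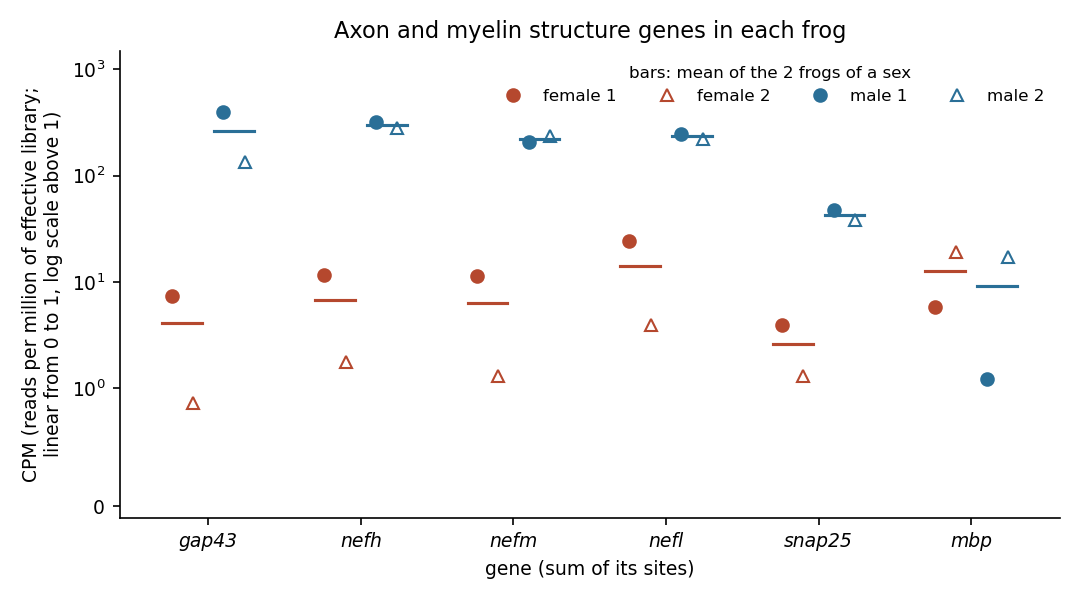
CPM of each gene in each frog (y axis linear from 0 to 1 and logarithmic above 1), with females in red and males in blue, circles for replicate 1, triangles for replicate 2 and short bars for the mean of 2 frogs. The males lie above the females in gap43, nefh, nefm, nefl and snap25, and the sexes overlap in mbp, where male 1 is the lowest of the 4 frogs at 1.22 CPM.

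gap43, the growth cone gene, lies on chromosome 2. Its sites gave 19 reads in female 1, 2 in female 2, 648 in male 1 and 142 in male 2. In CPM these were 7.41 and 0.874 among females while the males had 395 and 135. The lower male was still far above the higher female, but the males differed from each other by more than in any of the neurofilament genes. The fitted log2 fold was 5.96 ± 1.06 (SE, adjusted p = 0.00921, edgeR), a fold of 62.3. Nearly all gap43 reads (97.5%) lay at a single exonic site 35295 bases upstream of the last one, so this fold is mostly that of the upstream site. On the somatic scaling the log2 fold of the gene sum was 2.42 and did not pass (edgeR, adjusted p = 0.0558).

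Neurofilament heavy, medium and light chains rose together in the males, with the males close to each other and the females far apart. nefh, the heavy subunit with a long tail that projects sideways from the filament, had 30 and 4 reads in the female frogs versus 528 and 295 in the male frogs, or 11.7 and 1.75 CPM against 322 and 280 CPM. Its log2 fold was 5.46 ± 0.92 (SE, adjusted p = 0.00818, edgeR). nefm, the medium subunit, had 29 and 3 reads in the females, against 343 and 251 for the males, or 11.3 and 1.31 CPM against 209 and 238 CPM. Both genes showed the same ranking of the females, with female 2 the lower.

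The log2 fold of nefm was 5.12 ± 0.94 (SE, adjusted p = 0.00981, edgeR). nefl, the light subunit on which the other chains assemble, had 62 and 9 reads among females while the males had 404 and 233. In CPM nefl had 24.2 and 3.93 in the female frogs versus 246 and 221 in the male frogs. The sexes were again well apart, and the log2 fold of nefl was 4.04 ± 0.87 (SE, adjusted p = 0.0139, edgeR). On the somatic scaling the log2 folds of nefh, nefm and nefl were 1.91, 1.57 and 0.49, and none passed (edgeR, adjusted p = 0.0731, 0.153 and 0.618). Their unadjusted p on that scaling were 0.0568, 0.125 and 0.573.

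snap25, the vesicle fusion gene, lies on chromosome 5. It had 10 and 3 reads in the females, against 77 and 40 for the males, or 3.90 and 1.31 CPM against 47.0 and 37.9 CPM. The sexes were well apart, on few female reads. The log2 fold was 3.98 ± 0.82 (SE, adjusted p = 0.0128, edgeR), which was 3.3 with no call when female 2 was left out (adjusted p = 0.0658). On the somatic scaling it was 0.45 (edgeR, adjusted p = 0.670).

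mbp was the exception. It had 15 and 44 reads among females while the males had 2 and 18, or 5.85 and 19.2 CPM against 1.22 and 17.1 CPM. Female 2, the frog with the fewest reads of each of the other 5 members, had the most mbp reads, and male 1, the frog with the most gap43, had the fewest. The log2 fold was -0.50 ± 1.19 (SE, 95% interval -3.25 to 2.24, adjusted p = 0.755, edgeR). A rise like that of nefh at 5.46 lies outside the interval and a moderate change either way lies inside it. The 95% intervals of nefl (2.04 to 6.04) and snap25 (2.08 to 5.88) overlap that of mbp slightly, and those of gap43, nefh and nefm do not. The direction turned with 1 library, from -3.39 without male 2 to 0.47 without female 2 and 0.44 without male 1. On the somatic scaling mbp was lower in males, with a log2 fold of -4.05 (edgeR, adjusted p = 0.0192). So were most genes there, as 7704 of 10188 tested genes were called and 0.935% of these were higher in males. The median of all genes on that scaling was -3.90, so mbp lay near it.

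In order of fold change the genes ran gap43, nefh, nefm, nefl, snap25 and mbp. From gap43 to nefm the estimates lay within 1 standard error of their neighbours, as did those of nefl and snap25, while nefm and nefl differed by slightly more than 1 standard error of either. The gap from snap25 to mbp was wider than the standard errors of both. Their difference was not tested in the fit across genes.

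Ratios within a library do not depend on the scale between the sexes. nefl took 51.2% of all neurofilament reads in female 1, 56.3% in female 2, 31.7% in male 1 and 29.9% in male 2. The exact 95% counting interval was 42.0 to 60.4% in female 1, and 29.9 to 80.3% in female 2, which rests on 16 reads. In the males it was 29.1 to 34.3% and 26.7 to 33.3%. The observed nefl share was thus higher and the nefh share lower in the females than in the males, without overlap of the 4 frogs. The nefl interval of female 2 covers both males (31.7 and 29.9%), so only that of female 1 lies above them.

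The mean nefl share was 53.7 ± 3.5% in females and 30.8 ± 1.3% in males (SD, n = 2), and the nefh share was 24.9 ± 0.1% and 39.6 ± 2.5%. The nefm share was 21.4 ± 3.7% and 29.6 ± 3.8%. Counting intervals were wider than these SDs. For nefh the interval was 17.4 to 33.5% in female 1, and 7.27 to 52.4% in female 2, which covers both males (41.4 and 37.9%). For nefm the intervals of female 1 (16.7 to 32.6%) and female 2 (4.05 to 45.65%) cover both males (26.9 and 32.2%). An exact two-sided permutation test gave p = 0.333 for each of these shares, the smallest that 2 frogs against 2 allow. With any 1 library left out, male minus female nefl share ran from -25.5 to -20.4 points. The labels mention no molecular identifiers that would mark PCR copies, and the intervals cover counting error only.

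**Figure D2:**
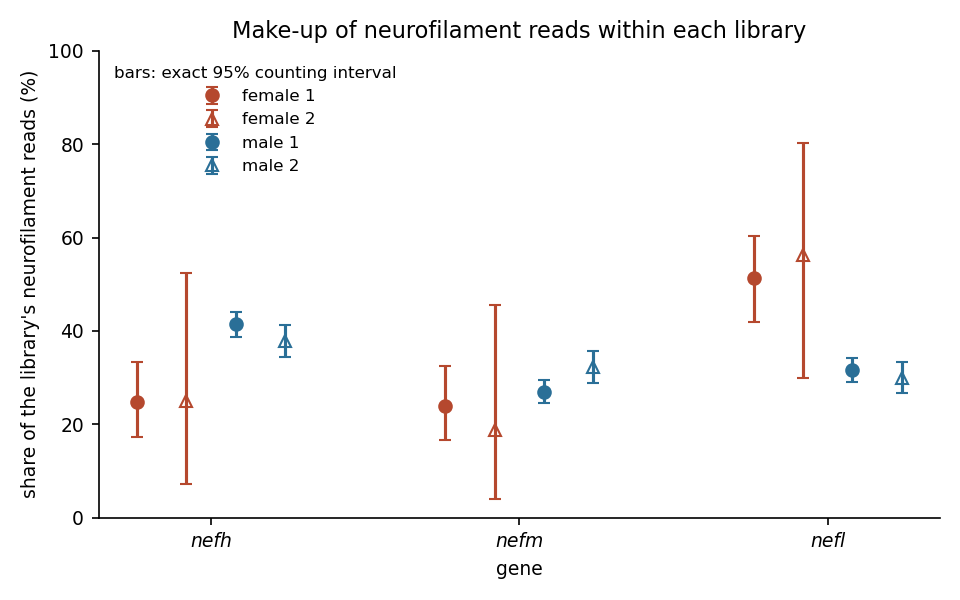
Share of each library's neurofilament reads (percent, y axis) that fell in nefh, nefm and nefl, with exact 95% counting intervals as bars, females in red and males in blue. nefl holds 51.2 and 56.3% in the females but 31.7 and 29.9% in the males. The interval of female 2 is wide because it has 16 reads, and it covers both males.

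gap43 gave 15.7 and 12.5 reads per 100 neurofilament reads in the female frogs versus 50.8 and 18.2 in the male frogs. Both males stood above both females, but male 2 was close to female 1, while male 1 stood far above male 2. The female 2 value rests on 2 gap43 reads over 16 neurofilament reads. snap25 gave 8.26 and 18.8 reads per 100 neurofilament reads in the females against 6.04 and 5.14 in the males, with only 3 snap25 reads in female 2. mbp gave 12.4 and 275 in the females against 0.157 and 2.31 in the males, so the ratio of myelin basic protein to neurofilament reads was higher in each female than in either male. The female 2 value is 44 mbp reads over 16 neurofilament reads, and the male 1 value rests on 2 mbp reads. The exact permutation p of each of these ratios was 0.333, the smallest possible here, and counting intervals were not computed for them.

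The sites show where along each gene these reads fell, and no difference in their use between the sexes was detected. Of the 41 sites 20 had enough reads for the test of single sites, most of them through the males alone. A site that enters this way is more likely to be called higher in males, so the next count is partly set by the filter. In males 19 of the 20 were higher, by edgeR at adjusted p from 0.0197 to 0.0486, against 16.2% of all 17215 tested sites called higher in males and 19.9% called higher in females. The site that did not pass was the main end of mbp. The count of 19 became 5 without female 2, and 11 without female 1 or without male 2. Of the 41 sites, 15 had 0 reads in both females. Their totals ran from 1 read (nefm, 106625211) to 56 reads (nefh, 132407208), so at the low ones 0 female reads say little. How common this was over all sites is not given here. In the authors' deposited table, which comes from the same counts, the FDR-adjusted p was under 0.05 at 10 of the 41 sites, and all 10 are among these 19. The share over all sites in that table is not given here, so the count of 10 is a description and no independent support.

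nefh was recorded at 17 sites on the minus strand of chromosome 1, all inside an exon. Its most downstream site (132403871) had 11 reads, from male 2. The other 16 sites stood 2016 to 3483 bases upstream of it, packed into 1467 bases with a median spacing of 97 bases between neighbouring nefh sites. These 16 sites held 98.7% of the gene's 857 reads. No site dominated, and the most used one (132407047) took 14.1% of the reads.

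That many ends is unusual in this table. Genes with at least 17 sites on their own strand made up 1.23% of 15251 genes, and the median gene had 2 sites. Priming on A-rich stretches inside an RNA can give reads that look like ends, and the sites were not checked for it. The most used nefh site had 4 and 0 reads in the females, against 74 and 43 for the males (log2 5.49 ± 1.24, adjusted p = 0.0197, edgeR), and without female 2 this call was lost (4.29, adjusted p = 0.0604). The largest bound was at 132407208, which had 0 reads in both females and 43 and 13 in the males, at least 29.9-fold higher against 3 reads over both females.

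All 9 tested nefh sites were higher in males, with log2 folds from 3.93 to 8.09, the largest at the site with 0 female reads, where the fitted value depends on the test's prior count. In male 1 the sites at 132407047 and 132406097 took 14.0 and 15.2% of nefh reads, and in male 2 they took 14.6 and 11.5%. The male profiles were thus similar at the leading sites. At 132406702 they parted, with 12.5% in male 1 and 5.42% in male 2. Female 1 had reads at 10 of the 17 sites and female 2 at 3.

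**Figure D3:**
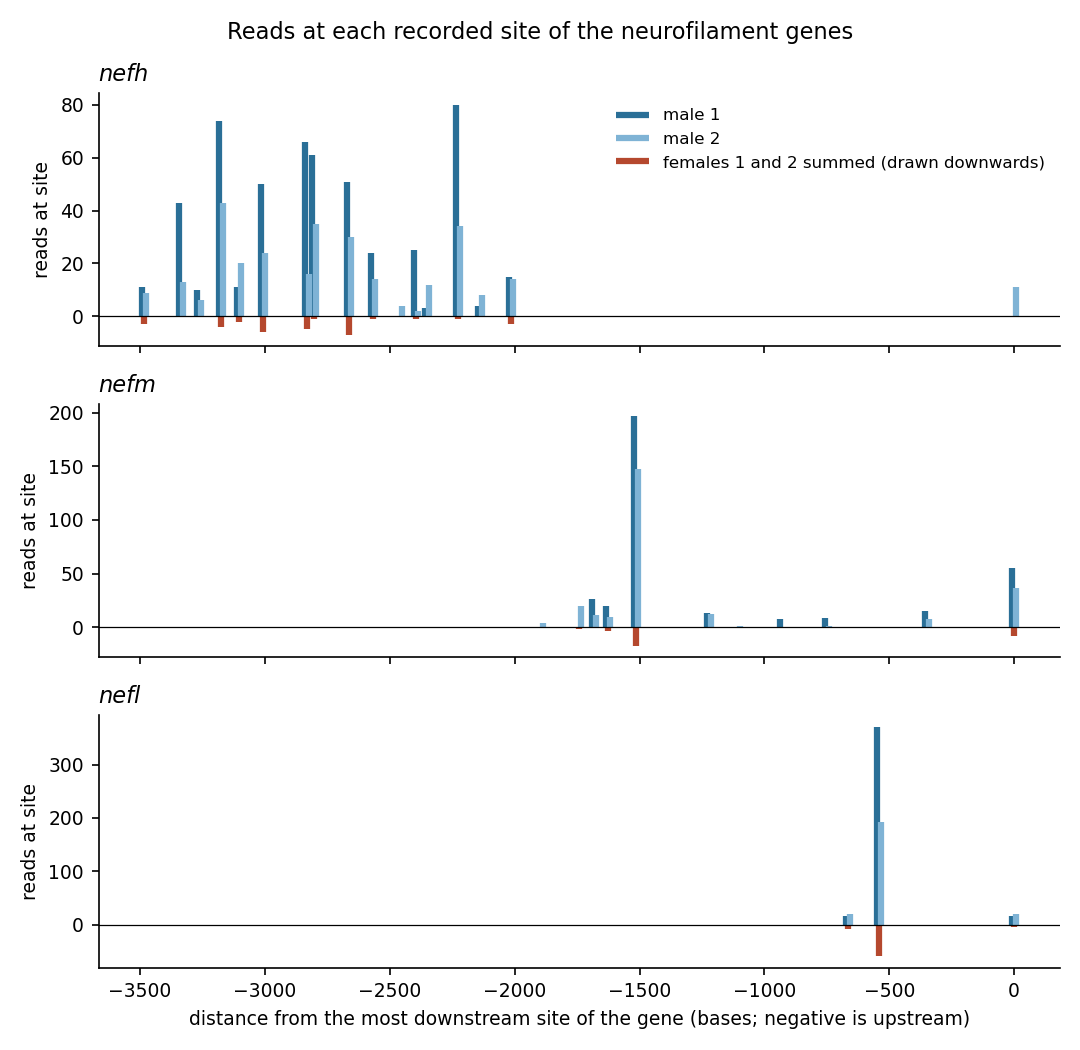
Reads at each site of nefh, nefm and nefl against the distance in bases from the gene's most downstream site, with males drawn upwards (dark blue for male 1, light blue for male 2) and the females' summed reads drawn downwards in red. nefh reads spread over many sites between 2016 and 3483 bases upstream, nefm reads peak 1514 bases upstream and nefl reads 540 bases upstream.

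nefm and nefl are neighbours on chromosome 3, on opposite strands, with 20750 bases between their most downstream sites, which face each other. nefm had 11 sites, all inside an exon, on the minus strand. Its most used site (106625618) lay 1514 bases upstream of the last and had 16 and 1 reads among females while the males had 197 and 147. That site took 57.4 and 58.6% of nefm reads in the males, 55.2% in female 1 and 33.3% in female 2, where it is 1 of 3 reads. The log2 fold of the site was 5.10 ± 1.08 (SE, adjusted p = 0.0197, edgeR).

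The last nefm site (106624104) had 7 and 1 reads in the female frogs versus 55 and 37 in the male frogs. Its share of nefm reads was 28.7 ± 6.5% for females and 15.4 ± 0.9% for males (SD, n = 2), on only 3 nefm reads in female 2. A nefm site at 106625845 was seen in male 2 with 20 reads and in male 1 with 0, so single sites could differ between frogs of a sex.

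nefl had 3 sites on the plus strand, all inside an exon. The middle one (106602814) had 53 and 6 reads in the females, against 371 and 192 for the males, and took 87.8% of all nefl reads. Its log2 fold was 3.98 ± 0.99 (SE, adjusted p = 0.0224, edgeR), which was 2.85 with no call without female 2 (adjusted p = 0.12). The site upstream of it had a log2 fold of 3.01 ± 0.99 and the last site one of 3.92 ± 1.30, close to the test's threshold (adjusted p = 0.0482 and 0.0486, edgeR).

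Site use could be tested in the 3 neurofilament genes, which had at least 2 tested sites each. None differed between the sexes in its use of sites by the gene-level test of edgeR's diffSpliceDGE, with adjusted p = 0.585 for nefh over 9 sites, 0.671 for nefm over 5 sites and 0.868 for nefl over 3 sites. Unadjusted p were 0.386, 0.489 and 0.781, so none was under 0.05 unadjusted either. In all, 15.3% of 3503 tested genes were called for site use. Female 2 had only 16 neurofilament reads, and what size of shift the test could find with so few was not measured.

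gap43 had 5 sites over 35295 bases, and nearly all reads lay at the most upstream one. This site (1047166, plus strand, inside an exon) had 17 and 2 reads among females while the males had 634 and 138, or 97.5% of the gene's reads in all. Its log2 fold was 5.91 ± 1.12 (SE, adjusted p = 0.0197, edgeR). The site at 1081009, also exonic, had 0 reads in both females and 7 and 3 in the males. The most downstream one, past the annotated gene end, had 4 reads, from male 1. As for nefh, the gap43 sites were not checked for priming on A-rich stretches inside the RNA.

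snap25 and mbp were the members with most of their own reads at the last site. In snap25 the last site (22640433, plus strand, overlapping an exon) had 10 and 3 reads in the female frogs versus 65 and 39 in the male frogs, or 90.0% of the gene's reads. Its log2 fold was 3.69 ± 0.94 (SE, adjusted p = 0.0239, edgeR), and the call was lost without female 2 (2.83, adjusted p = 0.194) and with no filter on low counts (3.23, adjusted p = 0.0610). An intronic site 21729 bases upstream had 0 reads in both females, 12 reads in male 1 and 1 read in male 2, so male 1 supplied nearly all of its reads.

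mbp lies on a scaffold in the deposited table and on chromosome 6 in the RefSeq assembly UCB_Xtro_10.0. Its last site (371404, plus strand, overlapping an exon) had 12 and 40 reads in the females, against 0 and 18 for the males, or 88.6% of the gene's reads. Male 1 thus had no read at the main end of mbp, and its 2 mbp reads fell at an intronic site 89980 bases upstream. Its library had the most reads in total, but its TMM-scaled size for gene sums (1639130) was below those of the females (2565011 and 2289036). The log2 fold of the last site was -0.57 ± 1.56 (SE, adjusted p = 0.789, edgeR). Without male 2, which leaves male 1 with 0 reads there, the site was called higher in females (-7.69, adjusted p = 0.0433, edgeR), a fitted value that depends on the prior count. Over the 8150 genes with at least 2 sites and 50 reads, the median share of reads at the last site was 21.4%, against 0.493% in gap43, 1.28% in nefh, 16.0% in nefm and 5.65% in nefl. Low shares were common, since 45.2% of these 8150 genes were at or under the share of nefm and 30.0% at or under that of nefl.

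The wider set of axon genes followed the same direction. This list and those below were also chosen with earlier results of these data known. Some of their genes, such as bsn, mpz and elavl4, entered the test through the males alone, and cnp through the females alone. The counts of calls in these lists are thus partly set by the filter. Of 31 listed axon cytoskeleton and growth genes 27 had reads on their own strand and 19 were tested. Beside the 4 members on that list, 9 of 15 tested genes were higher in males, 1 was higher in females and 5 did not pass (edgeR). Over all tested genes, 17.1% were called higher in males and 19.6% higher in females. The median log2 fold of the 15 genes was 3.23. Among those higher in males were the tau gene mapt (4.17 ± 0.57, adjusted p = 0.00649) and stmn2, a tubulin-binding protein of growing axons (5.19 ± 0.78, adjusted p = 0.0068). map1b, a microtubule-associated protein, and basp1, a growth cone protein related in function to gap43, rose by 4.64 ± 0.75 and 4.03 ± 0.70 (adjusted p = 0.00769 and 0.00889, edgeR).

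uchl1, a deubiquitinating enzyme abundant in neurons and in germ cells, went the other way, with 779 and 802 reads among females while the males had 26 and 18. Its log2 fold was -4.31 ± 0.60 (SE, adjusted p = 0.00649, edgeR). ank3, the ankyrin of the axon initial segment, did not pass at 1.68 ± 0.62 (adjusted p = 0.0638, edgeR). The other neuronal intermediate filament genes had too few reads for the test. ina (internexin) had 0 and 1 reads in the female frogs versus 81 and 2 in the male frogs, and prph (peripherin) 0 and 0 against 5 and 12.

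**Figure D4:**
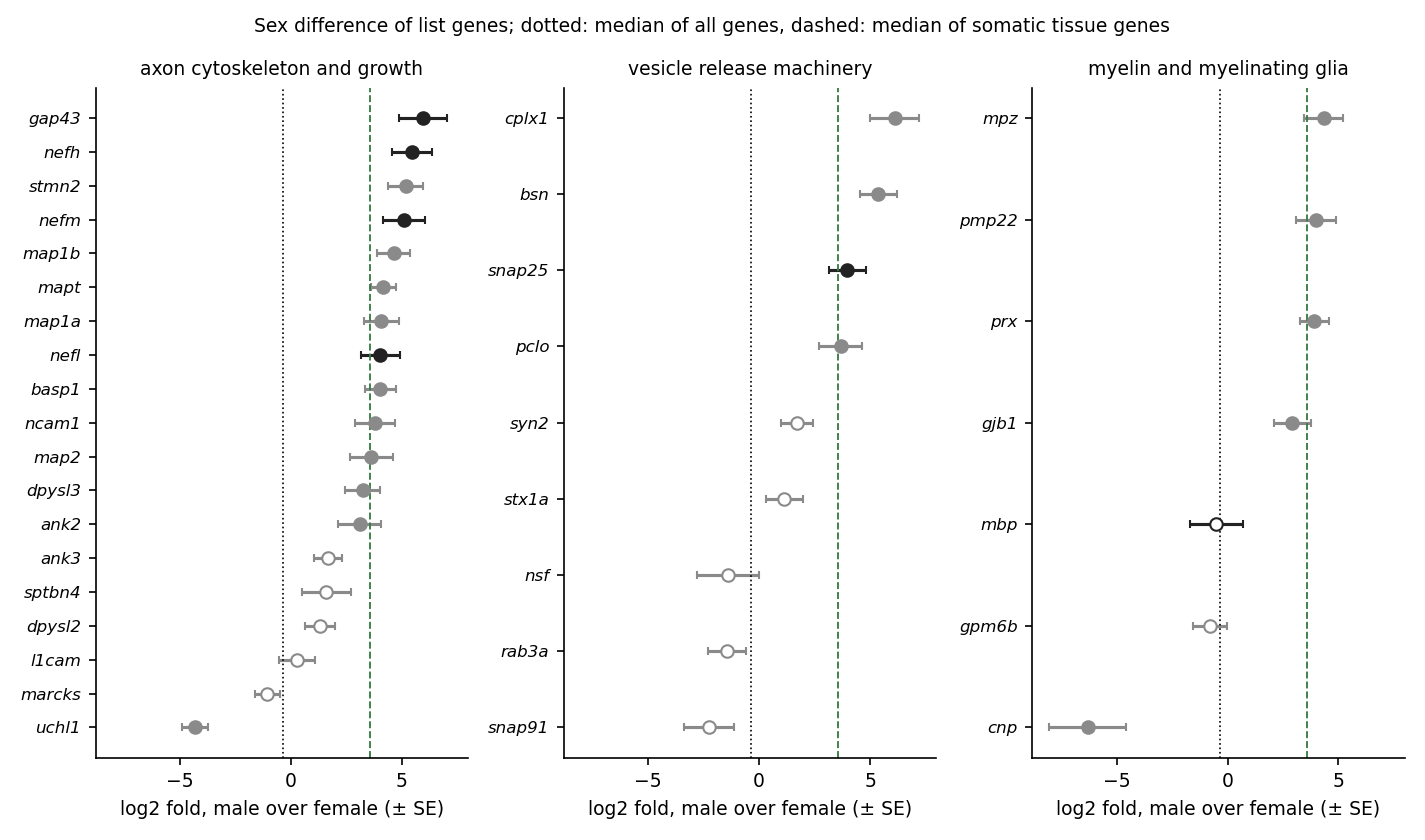
Fitted log2 fold change, male over female, with its standard error for tested genes of the axon, vesicle release and myelin lists, black for the 6 genes described and grey for the others, filled where adjusted p is under 0.05. The dotted line is the median of all genes (-0.35) and the dashed line the median of somatic tissue genes (3.56). The fitted value of cnp depends on the test's prior count because both males had 0 reads.

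Among the genes of vesicle release, 5 of 10 tested beside snap25 were higher in males and 5 did not pass (edgeR). The share called higher in males over all tested genes was 17.1%. The median log2 fold of the 10 genes was 2.69. cplx1, complexin, which clamps the SNARE complex, had 1 and 2 reads in the females, against 126 and 18 for the males, a ratio of 86.5 (95% counting interval 29.0 to 424, adjusted p = 0.00965, edgeR). The active zone scaffold gene bsn had a log2 fold of 5.37 ± 0.84 (SE, adjusted p = 0.00744, edgeR).

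snap23, the relative of snap25 used for fusion in most cells outside the nervous system, had 206 and 378 reads among females while the males had 65 and 56. The females lay above the males, but the log2 fold of -1.41 ± 0.59 did not pass (adjusted p = 0.0926, edgeR). snap29 and snap47 had log2 folds of -1.50 ± 0.87 and -0.50 ± 0.93 (adjusted p = 0.203 and 0.692, edgeR). Neither of them passed, and the difference between snap25 and its relatives was not tested.

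Myelin genes split, with most of those tested rising in the males and mbp not among them. Of 26 listed genes of myelin and myelinating glia 18 had reads on their own strand and 8 were tested. Beside mbp, 5 of 7 were higher in males, 1 was higher in females and 1 did not pass (edgeR). Of all tested genes 17.1% were called higher in males and 19.6% higher in females. The median log2 fold of the 7 genes was 3.91. Setting cnp to its bound leaves that median as it is. mpz, the main adhesion protein of Schwann cell myelin, had 3 and 4 reads in the female frogs versus 61 and 25 in the male frogs (log2 4.34 ± 0.88, adjusted p = 0.0123, edgeR). prx, the periaxin of Schwann cells, had 19 and 13 against 205 and 78 (3.91 ± 0.65, adjusted p = 0.00813, edgeR).

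The peripheral myelin gene pmp22 had 9 and 4 reads in the females, against 34 and 70 for the males (log2 4.0 ± 0.91, adjusted p = 0.0161, edgeR). In mpz, prx and pmp22 both males lay above both females.

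The gap junction gene gjb1, which Schwann cells share with liver, had a log2 fold of 2.92 ± 0.82 (adjusted p = 0.0286, edgeR). cnp, whose product is an enzyme bound to the myelin membrane, had 13 and 12 reads in the females and 0 in both males, at least 4.62-fold higher in females against 3 reads over both males (adjusted p = 0.0306, edgeR). gpm6b, a membrane proteolipid of neurons and glia, had a log2 fold of -0.80 ± 0.78 and did not pass (adjusted p = 0.436, edgeR). The counts of the myelin and vesicle release lists rest on both females. When either female was left out, the 5 myelin genes called higher in males became 2, and the 6 release genes, snap25 included, became 3.

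**Figure D5:**
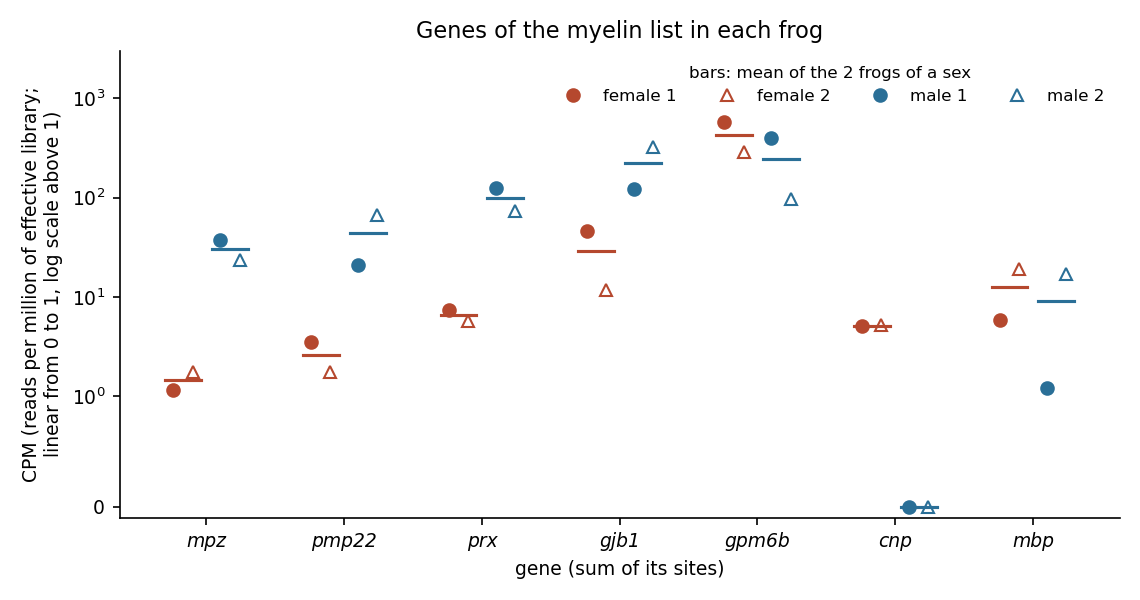
CPM of tested genes of the myelin list in each frog (y axis linear from 0 to 1 and logarithmic above 1), females in red and males in blue, with bars for the mean of 2 frogs. Both males lie above both females in mpz, pmp22, prx and gjb1, while cnp is at 0 in both males and mbp ranges from 1.22 to 19.2 CPM with the sexes overlapping.

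Most tested markers of neurons were higher in males, as were most tested genes of non-neural tissues. Skeletal muscle genes were called higher in males in 17 of 17, connective tissue genes in 10 of 12 and liver genes in 9 of 12. For gut genes it was 7 of 11 and for blood genes 5 of 9, against 17.1% of all tested genes (edgeR). No tested gene of these tissue lists was called higher in females. Of 8 tested neuron identity genes 6 were higher in males and 2 did not pass (edgeR), with a median log2 fold of 3.91. The list's sum was 43.3 to 103 CPM in females and 489 to 1163 in males. Most of the male sum came from camk2b (694 and 222 CPM) and camk2a (212 and 138.5 CPM). Examples of the genes higher in males are nova1, a neuronal splicing factor (4.44 ± 0.79, adjusted p = 0.00924), and camk2a, a synaptic kinase (3.90 ± 0.69, adjusted p = 0.00907, edgeR). elavl4, a neuronal RNA-binding protein, had 2 and 1 reads in the female frogs versus 46 and 13 in the male frogs. Secretory granule genes of neurons and endocrine cells did the same in 3 of 4 tested (edgeR), with chga at 3.26 ± 0.56 (adjusted p = 0.00865).

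Of the astroglial genes only glul had enough reads, and its copies had log2 folds of 0.65 ± 0.58 and -0.67 ± 0.55, which did not pass (adjusted p = 0.40 and 0.353, edgeR). Among leukocyte genes, which could carry mbp-related transcripts known from mammals, cd74 was higher in males (3.35 ± 0.63, adjusted p = 0.0104) and ptprc was not called (-0.15 ± 0.95, adjusted p = 0.915, edgeR). The leukocyte list summed to 16.6 to 41.3 CPM in females and 115 to 154 in males. Its part in the mbp reads was not tested.

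On the somatic scaling, with the members included, the axon list had a median log2 fold of 0.26, the release list 0.15 and the myelin list -0.14. Of these lists 0 axon genes, 1 release gene and 0 myelin genes were then called higher in males by edgeR, with 1, 1 and 0 at an unadjusted p under 0.05. In the other direction 5 of 19 axon, 4 of 11 release and 3 of 8 myelin genes were called higher in females. Over all genes this was far more common, as 7704 of 10188 tested genes were called on this scaling and 0.935% of these were higher in males. All 5 axon members lost their call on this scaling, with log2 folds from 0.45 ± 0.89 in snap25 and 0.49 ± 0.83 in nefl, both within their standard error of 0, to 2.42 ± 1.00 in gap43 (SE, edgeR). Their unadjusted p ran from 0.0425 in gap43 to 0.628 in snap25.

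The genes most like each member across the 4 libraries were found by the Euclidean distance between log2 CPM values centred per gene, among 10182 tested genes. For gap43 these were pgq, a frog peptide gene, at a distance of 0.322, then klhl29 (0.599) and LOC100489058 (0.634). nefh was nearest to meis1 (0.533), LOC100489132 (0.541) and ebf3 (0.668), and nefm to sepp1-like (0.488), LOC100489132 (0.526) and meis1 (0.619). Among the members nefh and nefm were at 0.417, nearer to each other than to any of these.

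nefl was nearest to LOC101733496 (0.17), a2m (0.364) and the collagen gene col5a1 (0.382). snap25 was nearest to LOC101733825 (0.11), junb (0.117) and LOC108644837 (0.132), and mbp to rgcc (0.248), taf7 (0.285) and stk16 (0.321). mbp stood at distances of 5.43 from snap25 to 7.89 from gap43. With 4 libraries many genes lie close by, and the distances are a description.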

How the data were processed

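Raw counts of reads, per the file headers, were deposited by the authors in 1 table of polyadenylation sites, whose 4 count columns were mapped to frogs by the sample titles. Per the labels' protocols, Trizol RNA was broken up, its poly(A) part enriched, and cDNA of selected size amplified by PCR. The submitters' processing notes name Bowtie2 2.2.3. How reads were grouped into sites, and on which build, is not given in the sources used here. That same deposited table holds the authors' p-values and FDR and a signed fold change used as a score, with no tool named. Positions are printed as deposited, with an unstated base (0 or 1). Chromosome numbers come from RefSeq (UCB_Xtro_10.0), where all 6 symbols matched, and no position was taken from it.

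Class codes were read as in Cuffcompare, which the file does not name. Gene sums leave out 2709 sites on the strand opposite to their gene, none of them in the 6 genes. Genes and sites were tested over the whole table with edgeR 4.0.16 in R 4.3.3 (TMM, filterByExpr with minimum count 10 and total 15, glmQLFit, glmQLFTest on sex, Benjamini-Hochberg at 0.05). Site use was tested with diffSpliceDGE. Standard errors are the absolute log2 fold divided by the square root of F. The tests were checked on simulated counts with as many rises as falls in a small part of the features. That check does not cover the scale between the sexes. Alternatives were RLE, library size alone, somatic scaling, other filters, other site classes, DESeq2 1.42.0, a replicate block and leaving out each library. Libraries are single frogs, so p-values measure the spread between frogs. A female or male total of 0 reads was set to 3 reads for a bound.

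Named genes are the 6 members, up to 4 called genes of smallest adjusted p per list and genes called against a list's direction. Others named were chosen after their values were seen (zp2, ina, prph, ank3, snap91, rab3a, nsf, syn2, stx1a, snap23, snap29, snap47, gjb1, gpm6b, glul and ptprc). The members and lists were chosen with earlier results of these data known. Values of some genes are not reported here, in text or figures; the counts, sums and medians of the lists include them.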

Additional observations from a re-analysis of the deposited data

How the results depend on the processing

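The few female reads of these genes limit the results, since female 2 has 2 to 9 reads for gap43 and each neurofilament gene. Without 1 library, where a lone frog is assumed to vary like the other sex, the log2 fold of snap25 was 3.3 to 4.96 and that of mbp -3.39 to 0.47, and that of the main mbp site -7.69 to 0.56, called higher in females without male 2 (adjusted p = 0.0433, edgeR). Without female 2 the most used sites of nefh, nefl and snap25 lost their call. The folds of gap43 (4.95 to 8.15), nefh (4.55 to 7.39), nefm (4.17 to 7.35) and nefl (3.14 to 5.88) kept their call. Called genes then numbered 1280 to 4371 in place of 3735, called sites 2395 to 5777 in place of 6216, site use genes 0 to 731 in place of 536, member sites higher in males 5 to 13 in place of 19 (fewest without female 2), release genes 3 to 7 and myelin genes 2 to 7.

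Scaled to the somatic lists, the log2 folds were 2.42 for gap43, 1.91 for nefh, 1.57 for nefm, 0.49 for nefl, 0.45 for snap25 and -4.05 for mbp. There 7704 genes were called, 0.935% of them higher in males in place of 46.6%, with 0 axon, 1 release and 0 myelin genes higher in males, 5, 4 and 3 higher in females and a median of all genes of -3.90. With library size alone that share was 24.1% and the median -1.25, and every member kept its call. With no filter 12 member sites were called. At 1 CPM in 2 libraries 13496 sites and 1375 site use genes were called. The cause of these changes was not tested, beyond the fewer samples or other scale that each alternative has. RLE, DESeq2 and the choice of site classes changed no member's call.

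The replicate numbers pair no frogs as far as the labels say. With the replicate block, 4637 genes and 15 member sites were called, and no member gene's call changed. Deviations of replicate 1 correlated at 0.307 between the sexes over 10188 genes.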

Other observations

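A site without a gene, singled out after its values were seen, lay 25007 bases past the last mbp site on the same strand and scaffold (396411). Female 1 had 4 reads there, female 2 had 2, male 1 had 21 and male 2 had 46, a log2 fold of 4.32 ± 1.16 (SE, adjusted p = 0.0274, edgeR). Both males lay above both females, unlike at the main end of mbp. The table assigns the site to no gene, and whether its reads come from mbp was not tested.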
